A study of Mus musculus with 474 samples.

Results

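The vacuolar ATPase (V-ATPase) is described here by 10 of its subunit genes, out of 55450 genes counted, in single daughters of mouse haematopoietic stem cells (HSCs) after their first division in culture. The members were given by name: Atp6v1a, Atp6v1b2, Atp6v1c1, Atp6v1d, Atp6v1e1, Atp6v1f, Atp6v1g1 and Atp6v1h of the V1 sector, and Atp6v0b and Atp6v0d1 of the V0 sector. All 10 had a row in the count tables and passed the filter on low counts in each comparison. The cells came from bone marrow of wild type male C57BL/6JRj mice aged 12 to 19 weeks, and no group received a treatment. HSC divisions were followed by time-lapse imaging, daughters were picked by micromanipulator, and each was profiled alone with Smart-seq2, in which the whole length of polyadenylated RNA is read. The deposited labels call a daughter "high" if it received more lysosomes than its sister and "low" if it received fewer, and the question they pose is whether gene expression follows that inheritance or the family a cell belongs to. The setting of this label, the number of mice per culture and the sort of HSCs were not given in the sources used here.

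Of 474 listed cells, 406 formed 203 divisions with 1 high and 1 low daughter. They came from 9 culture experiments, 5 in sequencing run 4 (69, 74, 75, 76 and 77) and 4 in run 5 (60, 68, 72 and 73), with 11 to 38 divisions each. The experiment is the replicate. The other 68 cells had no sequenced sister. Listed cells had between 76735 and 2444858 counts on genes (median 846198), and the median share of spike-ins was 0.0259% in run 4 and 0.604% in run 5. Levels are in CPM, a cell's counts of a gene scaled to its total on genes. HSC markers fitted the label, detected in 97.8% of cells (the median of 9 genes), from Slamf1 in 27.6% to Mecom in 100%. The other marker lists had medians of 0.739% to 7.51%, although single genes of them were widely detected (Gata2 in 99.3% of cells, Pecam1 in 93.1%, Prtn3 in 73.9% and Hbb-bt in 62.3%), and the macrophage and osteoclast markers, types that are rich in V-ATPase, summed to between 1.77 and 10.7 CPM per experiment, with the osteoclast gene Acp5 at 0.

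The V-ATPase is a rotary pump that spends ATP to move protons into lysosomes, endosomes and secretory vesicles. The V1 sector in the cytosol hydrolyses ATP in a head of A and B subunits, and the turning of a central stalk (D and F) is passed by subunit d to a ring of proteolipids in the V0 sector in the membrane. Peripheral stalks of E and G, with C and H, hold the head still, and cells regulate the pump partly by taking V1 off V0 and putting it back. The acid it makes activates lysosomal hydrolases, and the pump also takes part in nutrient sensing at the lysosome.

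Promoters of members are shown first. Of the 6 members with a promoter entry, 3 carry the E-box CACGTG. These are the core letters of the element through which TFEB and related factors act on lysosomal genes. CACGTG is also a site of MYC and USF factors. Whether the motif has a part in the variation of members was not tested. RefSeq promoter entries on GRCm38.p6, each from 250 bases before to 50 bases after the transcript start, were matched for 6 of 10 members: Atp6v1a, Atp6v1d, Atp6v1e1, Atp6v1f, Atp6v0b and Atp6v0d1. Entries for Atp6v1b2, Atp6v1c1, Atp6v1g1 and Atp6v1h were not used here. The strands below are those of the genes, 5′ to 3′, and capitals mark CACGTG. The first is chr16:44139210-44139509, the second chr4:117887280-117887579 and the third chr8:105566015-105566314, each on the minus strand.
Atp6v1a: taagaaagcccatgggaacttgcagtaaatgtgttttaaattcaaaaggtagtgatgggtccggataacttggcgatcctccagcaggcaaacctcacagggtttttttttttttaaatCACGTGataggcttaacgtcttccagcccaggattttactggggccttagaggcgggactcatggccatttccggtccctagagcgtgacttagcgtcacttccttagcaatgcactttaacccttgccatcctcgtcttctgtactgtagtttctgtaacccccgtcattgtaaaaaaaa
Atp6v0b: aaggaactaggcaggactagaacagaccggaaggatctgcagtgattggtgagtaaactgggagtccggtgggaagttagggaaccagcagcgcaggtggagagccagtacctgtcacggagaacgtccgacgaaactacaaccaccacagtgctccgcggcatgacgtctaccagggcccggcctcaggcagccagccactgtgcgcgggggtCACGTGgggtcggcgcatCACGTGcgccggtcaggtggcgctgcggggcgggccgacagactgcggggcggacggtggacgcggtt
Atp6v0d1: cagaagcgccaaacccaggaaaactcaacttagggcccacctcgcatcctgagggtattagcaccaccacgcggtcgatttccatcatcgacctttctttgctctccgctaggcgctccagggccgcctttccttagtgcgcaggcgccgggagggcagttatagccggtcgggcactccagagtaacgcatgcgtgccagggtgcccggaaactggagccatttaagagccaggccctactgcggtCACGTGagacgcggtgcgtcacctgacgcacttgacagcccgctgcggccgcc
The first base of the motif lay at -131 from the transcript start in Atp6v1a, at -36 and -18 in Atp6v0b and at -3 in Atp6v0d1, where it runs across the start. In the annotation used for gene positions below, Atp6v1a reaches further, to 44139705, so its whole promoter window lies inside that gene. CACGTG reads the same on both strands and was present in 7.15% of 32851 promoter entries of this length (2349). The longer form TCACGTGA, which contains CACGTG, was present in the entries of Atp6v1a and Atp6v0d1 and in 0.974% of all, and GTCACGTG, searched on both strands, in those of Atp6v0b and Atp6v0d1 and in 2.25% of all. No CACGTG was found in the windows of Atp6v1d, Atp6v1e1 and Atp6v1f, which says only that these letters are not there. A match is a run of letters and not evidence of binding.

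All members were expressed in nearly every cell, with a count in 98.3% of cells (Atp6v1c1) to 100% (Atp6v1a, Atp6v1f and Atp6v0d1). Atp6v1a, the catalytic A subunit (GRCm38 chromosome 16, 44085402 to 44139705, minus strand), was at 243.0 ± 48.2 CPM (SD, n = 9 experiments), from 165.2 in experiment 60 through a median of 251.5 to 324.9 in experiment 77. Its partner in the head, Atp6v1b2, the widely expressed B subunit (chromosome 8, 69088646 to 69113711, plus strand), was at 146.6 ± 31.3 CPM, from 85.1 in experiment 60 to 183.9 in experiment 77. Both genes thus had their extremes in the same 2 experiments.

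In the central stalk, Atp6v1d (chromosome 12, 78840725 to 78861638, minus strand) was at 141.0 ± 19.8 CPM, with a lowest experiment at 106.7, a median of 144.3 and a highest at 175.8. Atp6v1f, the other stalk gene (chromosome 6, 29467718 to 29470512, plus strand), was at 120.7 ± 12.2 CPM, between 106.3 and 144.1 with a median of 117.1. Atp6v1f was the steadiest member across experiments, its highest being 1.36 times its lowest, and across cells, with an SD of 0.58 in log2(CPM + 1). The most variable across cells was Atp6v1c1, with an SD of 1.18.

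The peripheral stalk genes were Atp6v1e1 (chromosome 6, 120794305 to 120822793, minus strand) at 119.0 ± 19.5 CPM, between 84.4 and 148.9 with a median of 122.9, and Atp6v1g1. Atp6v1g1 (chromosome 4, 63544772 to 63550750, plus strand) was at 86.3 ± 12.6 CPM, between 65.8 and 100 with a median of 90.4. Atp6v1c1, whose product joins the stalks to V0 and is released when the pump comes apart (chromosome 15, 38661933 to 38692446, plus strand), was at 54.8 ± 7.44 CPM, between 42.8 and 63.7 with a median of 51.9. Atp6v1h, which restrains ATP hydrolysis by free V1 (chromosome 1, 5070018 to 5162529, plus strand), was at 148.5 ± 22.7 CPM, between 107.7 and 168.6 with a median of 156.4.

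In the membrane sector, Atp6v0b, a proteolipid of the ring (chromosome 4, 117884326 to 117887333, minus strand), was at 55.6 ± 11 CPM, between 34.3 and 68.2 with a median of 58.0. A gene on the other strand, Gm12841, overlaps 11.9% of its exon bases. Atp6v0d1, the d subunit between the stalk and the ring (chromosome 8, 105524465 to 105566047, minus strand), was at 175.9 ± 28.7 CPM, between 118.1 and 208.8 with a median of 189.7. Overlaps were 0.779% for Atp6v1e1, 1.30% for Atp6v1h and 0 for the other members, and counting by strand was not given in the sources used here.

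Per kilobase of exon, the order of levels was Atp6v1f (113.5 CPM per kilobase), Atp6v0d1 (98.1), Atp6v1g1 (76.0), Atp6v1a (40.2), Atp6v1d (30.6), Atp6v1e1 (29.0), Atp6v1b2 (27.6), Atp6v0b (27.1), Atp6v1h (15.2) and Atp6v1c1 (9.79). Neighbours whose log2 ratio did not exceed its SD over experiments were Atp6v1f with Atp6v0d1 (0.22 ± 0.23), Atp6v1d with Atp6v1e1 (0.09 ± 0.17), Atp6v1e1 with Atp6v1b2 (0.08 ± 0.19) and Atp6v1b2 with Atp6v0b (0.02 ± 0.20). The other 5 neighbouring pairs kept their order in 9 of 9 experiments. The scale and the order depend on the exon length used: with the longest transcript in place of all exons joined, Atp6v0b stood at 55.6 and Atp6v1b2 at 51.9. Both were then above Atp6v1e1 (40.7) and Atp6v1d (38.5), the reverse of the order above.

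The other parts of the pump were present as broadly expressed forms. Among 9 further subunits and accessory proteins, the prorenin receptor gene Atp6ap2 was at 198.2 ± 40.2 CPM, the accessory subunit gene Atp6ap1 at 161.1 ± 41.6, Atp6v0e at 144.4 ± 20.04 and the main ring proteolipid gene Atp6v0c at 75.9 ± 15.7. Of the a subunits that carry protons past the ring, Atp6v0a1 was at 100.7 ± 16.2, Tcirg1 (a3) at 98.1 ± 15.3 and Atp6v0a2 at 59.8 ± 14.4 CPM. Atp6v0e2 had a count in 1.48% of cells, and Rnasek, whose exon bases overlap other genes over 67.7%, was listed at 0. Tissue-restricted forms were near the limit of detection: Atp6v1b1 had a count in 0.739% of cells, Atp6v1c2 in 2.71%, Atp6v1e2 in 0.493%, Atp6v0a4 in 3.69% and Atp6v0d2, a form known from osteoclasts, in 0.246%. Atp6v1g3 was at 0 in all 406 cells. The exception was Atp6v1g2, a form known from neurons, with a count in 41.9% of cells at 7.38 ± 2.47 CPM. A gene on the other strand, Nfkbil1, overlaps 5.74% of its exon bases, and its part in these counts was not tested.

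Experiments 60 and 72, both of run 5, held the lowest level of every member, 6 in experiment 60 and 4 in experiment 72, and no member was above its median there. The share of all genes with their lowest or highest level in a given experiment was not determined, so the counts in this paragraph have no background. Other subunits lowest in experiment 60 were Atp6v0a2, Atp6v0c, Atp6v0e, Atp6ap1 and Atp6ap2. Atp6v0a1 was lowest in experiment 72 and Tcirg1 in experiment 69. Experiment 77 of run 4 was highest for 5 members and above the median for 9. The members summed to 984.3 CPM in experiment 60, 1018 in experiment 72 and 1556 in experiment 77, and to between 1259 and 1394 in the other 6. Median totals in divisions were 588930 in experiment 60, 1145900 in experiment 72 and 541600 in experiment 77, and the part of depth in these levels was not tested. Of 9 assembly and disassembly factors, 4 had their highest level in experiment 60 (Oxr1, which drives V1 off V0, Ncoa7, Dmxl1 and Wdr7) and 2 their lowest (Tmem199 and Tldc1), and Ccdc115 was lowest in experiment 72.

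**Figure D1:**
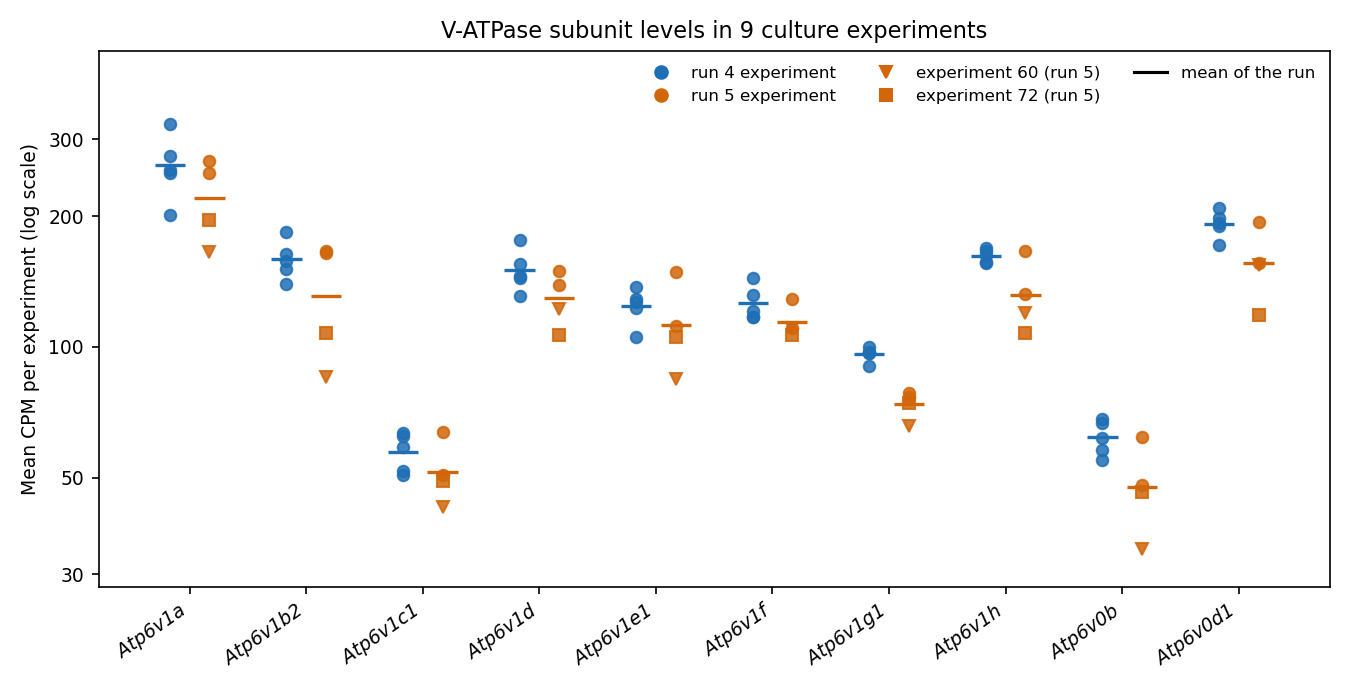
Mean CPM of each member in each of 9 culture experiments, on a log axis, with run 4 in blue, run 5 in orange and a line at the mean of each run. Experiments 60 (triangle) and 72 (square) hold the lowest point of every member, and Atp6v1g1 is the one member whose runs do not overlap. The share of all genes lowest in these 2 experiments was not determined.

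All 10 members had a lower level in run 5 than in run 4, by -0.10 (Atp6v1f) to -0.36 (Atp6v0b) on the log2 scale, with a median of -0.22 against 0.01 over all 14788 genes tested. None passed the threshold, nor did any gene (0 of 14788, edgeR quasi-likelihood test on counts summed per experiment, Benjamini-Hochberg adjusted p under 0.05). At an unadjusted p under 0.05 there were 2 members and 1351 genes, or 9.14%. Both members were lower in run 5, as were 4.05% of all genes at that p, and 49.4% of all genes were lower at any p. DESeq2 called 36 genes and no member. Run and culture experiments cannot be told apart here.

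Atp6v1g1 was at 90.4, 97.2, 100, 96.9 and 96.6 CPM in experiments 69, 74, 75, 76 and 77, and at 65.8, 76.8, 74.2 and 78.3 CPM in experiments 60, 68, 72 and 73. Every experiment of run 5 was below every one of run 4, which held for 1.99% of all genes, and 2.97% had no overlap in either direction. The log2 difference was -0.35 ± 0.11 (SE; edgeR, p = 0.00656, adjusted p = 0.543).

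Atp6v0b was at 54.8, 68.2, 66.9, 61.8 and 58.0 CPM in run 4 and at 34.3, 61.9, 46.4 and 48.0 CPM in run 5. Experiment 68 lay within the range of run 4 and the other 3 below it. The difference was -0.36 ± 0.16 (edgeR, p = 0.0425, adjusted p = 0.543). Atp6v0d1 had -0.27 ± 0.13 and Atp6v1h -0.27 ± 0.12, with unadjusted p of 0.0596 and 0.0551. For the head genes the difference was -0.22 ± 0.16 (Atp6v1a) and -0.21 ± 0.19 (Atp6v1b2), and experiments 68 and 73 of run 5 stood within the range of run 4 for both. Without experiment 60, Atp6v1a stood at -0.11 and Atp6v1b2 at -0.06. Without experiments 60 and 72, a choice made after seeing the data, Atp6v1b2 stood at 0.11 and the other 9 members were lower in run 5 by -0.01 (Atp6v1a) to -0.27 (Atp6v1g1), with Atp6v0b at -0.15 and Atp6v0d1 at -0.12, none past the threshold.

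The ring gene Atp6v0c was at 79.2 to 96.8 CPM in run 4 and at 49.1 to 76.2 in run 5, with no overlap and a difference of -0.41 ± 0.15 (edgeR, p = 0.0173, adjusted p = 0.543). Atp6ap1 had -0.48 ± 0.21 (p = 0.0398, adjusted p = 0.543), while Tcirg1 (0.11 ± 0.15) and Atp6v0a1 (0.06 ± 0.16) were higher in run 5. Over the 7 other subunits tested the median was -0.06, over 9 assembly factors 0.01 with 5 higher, over 43 lysosomal hydrolases -0.27 with 36 lower, and over 32 lysosome membrane genes -0.11 with 20 lower. None of these genes passed. Myeloid markers summed to between 38.4 and 66.1 CPM in the experiments of run 4 and between 28.2 and 37.0 in run 5, and their part in the run difference was not tested.

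High and low daughters had like levels of the members. For Atp6v1a, high daughters were between 168.9 and 354.8 CPM over experiments (median 245.0) and low daughters between 161.6 and 294.9 (median 238.7). For Atp6v0d1 they were between 123.7 and 199.7 (median 180.3) and between 112.6 and 219.4 (median 195.9). The ranges overlapped for both genes, with the high daughters of experiments 73 and 77 above every low value of Atp6v1a.

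High against low, no member passed the threshold and neither did any gene (0 of 14986, edgeR quasi-likelihood test with the experiment as block). At an unadjusted p under 0.05 there were 412 genes, or 2.75%, and 0 members. DESeq2 called 3 genes and limma over divisions 0, with 668 at an unadjusted p under 0.05, and no member was among either. Of the members 7 were higher and 3 lower in high daughters, where 49.4% of all genes were higher. Differences ran from -0.11 ± 0.10 (SE) for Atp6v1c1 to 0.11 ± 0.10 for Atp6v1h, with 95% intervals that reached no lower than -0.35 (Atp6v1c1) and no higher than 0.34 (Atp6v1h), so that a 2-fold difference lay outside the interval of each member.

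Atp6v1h was higher in high daughters in 8 of 9 experiments, with 152.7 ± 23.2 CPM in high and 144.3 ± 23.6 in low daughters (SD, n = 9). It did not pass (edgeR, unadjusted p = 0.281), and 112 of 203 divisions had the higher value in the high daughter. Atp6v1c1 was higher in high daughters in 3 of 9 experiments, with 52.3 ± 5.73 against 57.4 ± 11.3 CPM, and 86 of 203 divisions. Its estimate ran from -0.18 without experiment 69 to -0.03 without experiment 77. Over divisions with limma, Atp6v1c1 stood at -0.22 ± 0.12 (p = 0.0726) and Atp6v1e1 at 0.20 ± 0.10 (p = 0.0537), both with an adjusted p of 0.862 that rests on divisions and not on cultures. The Atp6v1e1 value has the opposite sign of that on sums, -0.01 ± 0.08. All 4 cells with no count of Atp6v1e1 in these divisions were low daughters, while for Atp6v1c1 5 high and 2 low daughters had no count. A low daughter of experiment 73 held 1009 CPM of Atp6v1e1 (319 counts of 316195) against 147.7 in its sister and 540.4 in the next highest cell of all. Without that division, the high minus low value of Atp6v1e1 in experiment 73 was -0.17 in place of -0.58.

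**Figure D2:**
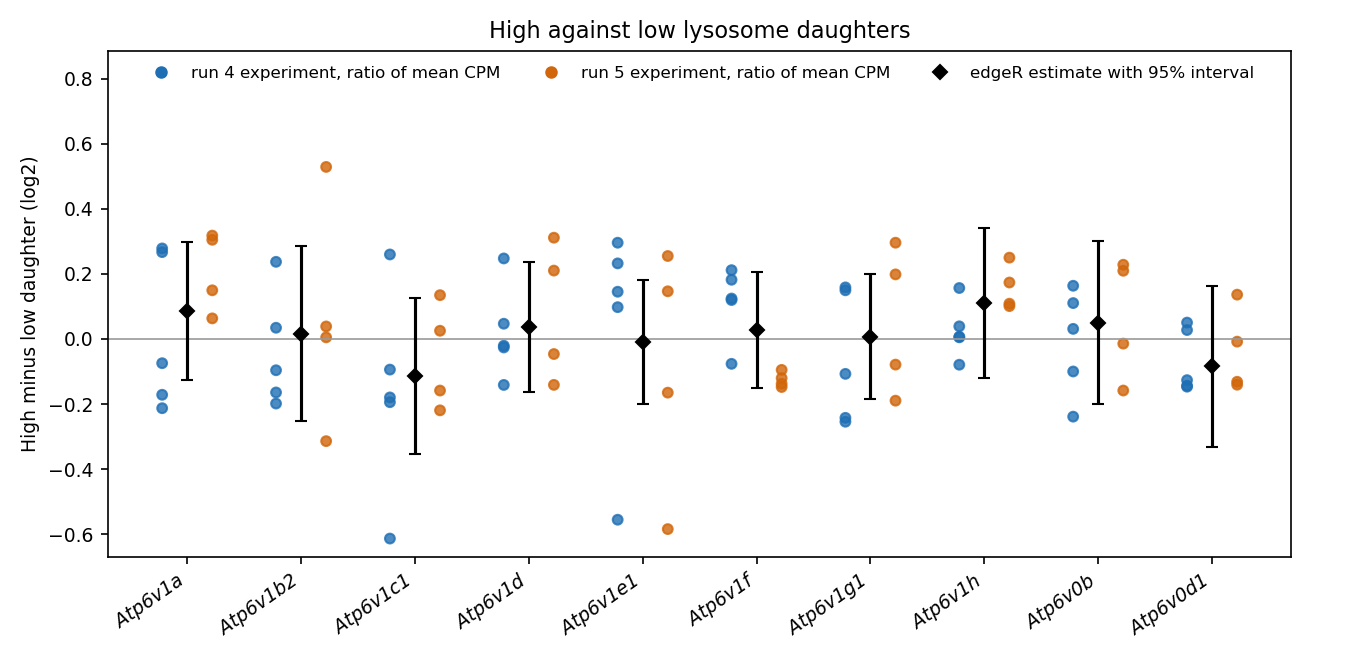
High minus low daughter on the log2 scale for each member: dots are single experiments as the ratio of mean CPM (blue run 4, orange run 5), diamonds the edgeR estimate with its 95% interval. Every interval includes 0, and the dots of Atp6v1f are below 0 in all 4 experiments of run 5.

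Whether the inheritance difference itself changed between runs was tested as an interaction. None of the members and none of 15854 genes passed (edgeR quasi-likelihood test), with 672 genes, or 4.24%, at an unadjusted p under 0.05, 0 members among them, and 4 genes called by DESeq2. Atp6v1f came nearest, at -0.24 ± 0.11 (p = 0.0529, adjusted p = 1). In run 4 Atp6v1f was higher in high daughters in experiments 74 (121.8 against 112.1 CPM), 75 (137.1 against 125.8), 76 (124.4 against 109.7) and 77 (154.6 against 133.6), but not in 69 (117.5 against 123.9). In run 5 it was lower in high daughters in all 4 experiments, at 106.6 against 113.9, 104.7 against 115.9, 101.2 against 111.3 and 123.4 against 134.2 CPM. Fitted within each run the difference was 0.13 in run 4 and -0.10 in run 5. At the other end stood Atp6v1a with 0.16 ± 0.14.

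Estimates of sister similarity varied over the members, and differences between members were not tested. Similarity was measured by the intraclass correlation of log2(CPM + 1) after centring on experiment and plate, which is near 1 where sisters differ little compared with divisions and near 0 where they differ as much as unrelated cells of the plate. Over the 203 divisions 3 of 10 members passed (F test over divisions, Benjamini-Hochberg adjusted over 11699 genes). Of all genes 26.4% passed, so the share of members was near the background. The median of the members was 0.13, against 0.09 for all genes. Such p-values take divisions as the units, although these share a few cultures.

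Atp6v0d1 had the highest value, 0.271 (95% interval 0.137 to 0.395, adjusted p = 0.000538 by the F test over divisions), positive in 9 of 9 experiments, which held for 7.66% of genes. Its SD on the log2 scale was 0.41 between and 0.68 within divisions. Atp6v1a had 0.227 (0.0906 to 0.355, adjusted p = 0.00436), positive in 8 of 9, and Atp6v1b2, the other head gene, 0.193 (0.0558 to 0.324, adjusted p = 0.0161), positive in 7 of 9. At least 8 of 9 experiments were positive for 18.4% of genes.

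Just outside the threshold of the F test stood Atp6v0b with 0.157 (adjusted p = 0.0507). Further from it were Atp6v1f with 0.135 (0.0868) and Atp6v1d with 0.116 (0.132). Atp6v1g1 had 0.0801, Atp6v1h 0.0154 and Atp6v1e1 0.0139. For Atp6v1c1 the value was -0.0768 (95% interval -0.213 to 0.0632), lower than in all but 3.45% of genes.

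The count of members that passed changed with experiments left out and with scores regressed out, and the cause was not tested. Without experiment 60, 1 member (Atp6v0d1) and 23.7% of all genes passed, as Atp6v1a fell to 0.159 (adjusted p = 0.0643) and Atp6v1b2 to 0.105 (0.192), while 5 members and 27.0% of genes passed without experiment 68, and 5 members and 25.6% without experiment 73. With G1/S and G2/M scores regressed out, 13.9% of all genes and 1 member passed, Atp6v1a at 0.181 (adjusted p = 0.0420). Atp6v0d1 then stood at 0.141 (0.114) and Atp6v1b2 at 0.146 (0.102). With total counts and detected genes regressed out, 23.8% of genes and 4 members passed, Atp6v0b (0.0345) being the fourth. With all of these regressed out at once, a setting chosen after seeing the data, 14.3% of genes and no member passed (Atp6v1a adjusted p = 0.0570).

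**Figure D3:**
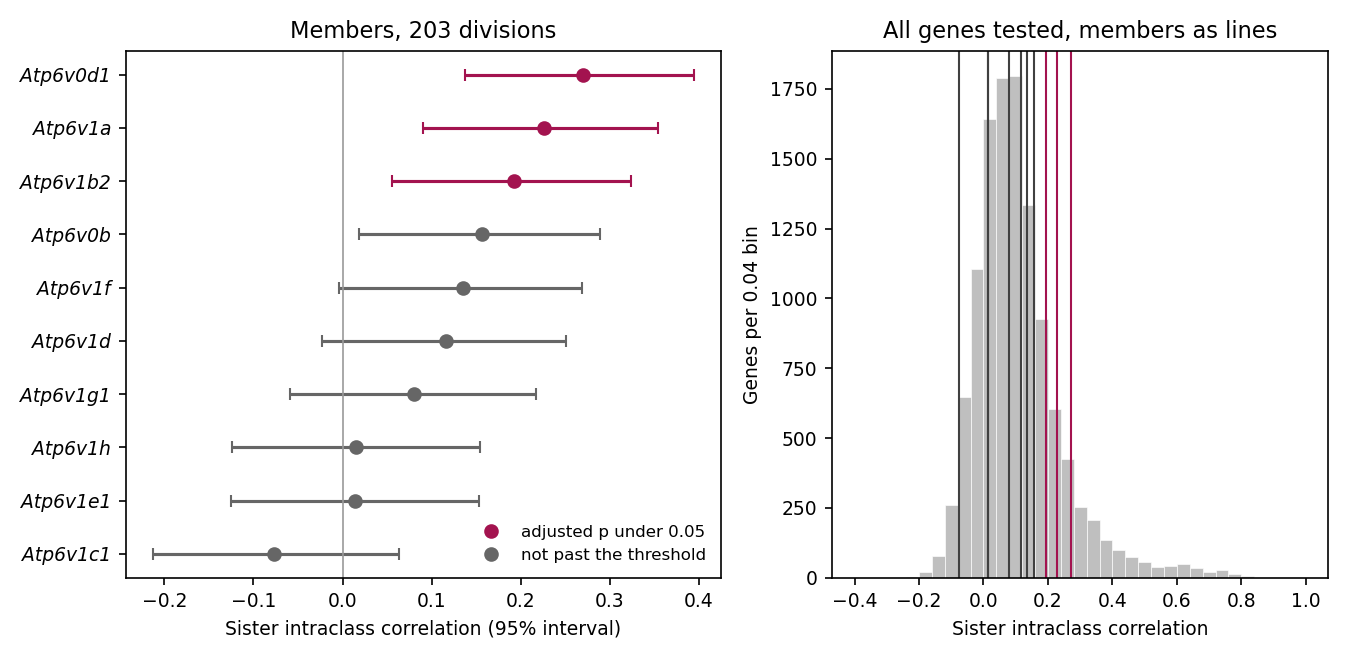
Left, sister intraclass correlation of each member with its 95% interval, in red where the adjusted p was under 0.05. Right, the same measure for all 11699 genes tested as a histogram, with the members as lines: they run from -0.0768 to 0.271 within the bulk of all genes.

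How close sisters were in absolute terms followed another order. The levels of Atp6v1f in sisters were within 2-fold of each other in 174 of 203 divisions (85.7%), those of Atp6v1g1 in 81.3%, Atp6v0d1 in 78.8%, and both Atp6v1a and Atp6v0b in 76.4%. Atp6v1c1 was last with 54.2%, behind Atp6v1b2 with 63.5%. Atp6v1f thus differed little between sisters and also little between divisions, with SDs of 0.53 and 0.21, whereas for Atp6v1b2 both were larger, 0.96 and 0.47. For Atp6v1c1 the SD within divisions was 1.22, and 7 divisions had 1 sister with no count. Counting error at the median count would give an SD of 0.23 for Atp6v1c1 (38 counts) and 0.11 for Atp6v1a (185.5 counts) if reads were independent molecules, which reads without molecular identifiers are not.

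**Figure D4:**
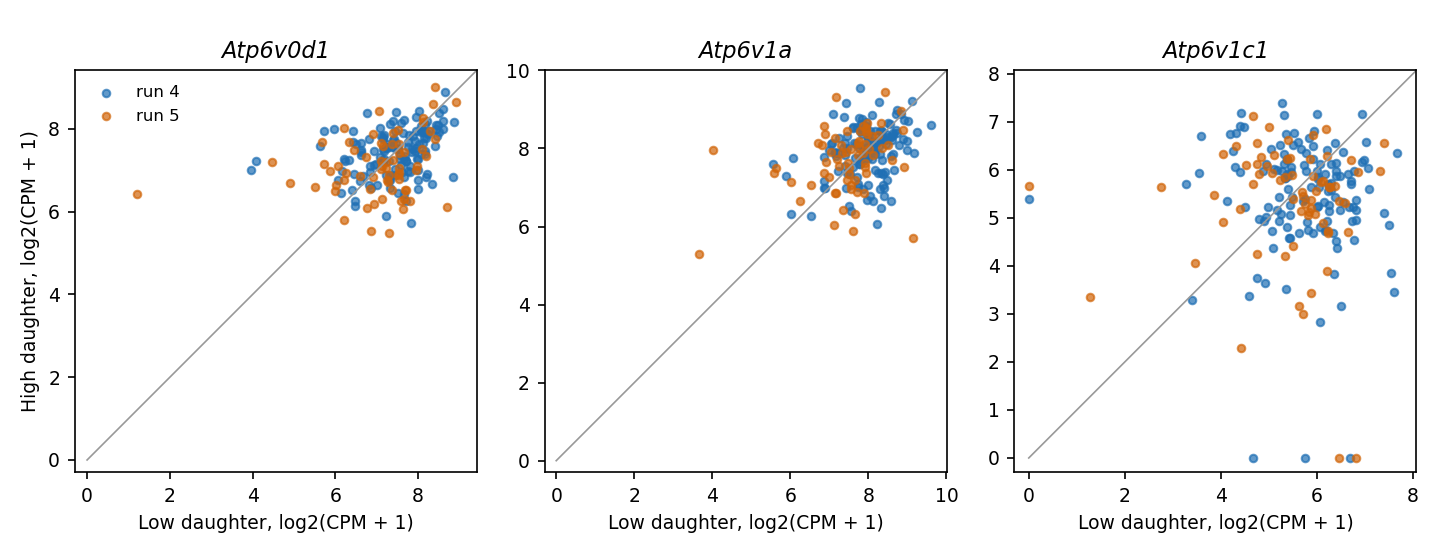
High against low daughter in log2(CPM + 1) for the 203 divisions, blue for run 4 and orange for run 5, with the line of equality. The intraclass correlation was 0.271 for Atp6v0d1, 0.227 for Atp6v1a and -0.0768 for Atp6v1c1, where 7 divisions have a sister at 0. It was taken after centring on experiment and plate, while the plotted values are not centred. For Atp6v0d1 and Atp6v1a the SD within divisions (0.68 and 0.63) was larger than that between them (0.41 and 0.34).

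Sisters sat in adjacent wells in 201 of 203 divisions, so cells in neighbouring wells that were not sisters were set beside them as a description. For Atp6v0d1 the correlation was 0.245 between sisters and -0.0492 over 154 neighbouring pairs that were not sisters. For Atp6v1a it was 0.20 and -0.105. Only Atp6v1b2 (0.0378) and Atp6v0b (0.0399) were above 0 among neighbours, both below their sister values of 0.166 and 0.129.

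Of 7 subunits outside the list that were tested none passed, the highest being Atp6ap2 at 0.150 (adjusted p = 0.0606) and Atp6v0a2 at 0.118 (0.127), and Atp6v0c stood at 0.0686. Of 9 assembly factors 1 passed, Oxr1 at 0.178 (adjusted p = 0.0268). The difference of these lists from the members was not tested. By comparison the hydrolase gene Ctsd had 0.541 and the membrane gene Lamp1 0.259, and 14 of 42 hydrolases and 13 of 30 lysosome membrane genes passed. Genes with CACGTG in a RefSeq promoter entry passed in 25.7% of cases (277 of 1076) and genes with an entry without it in 27.3% (2097 of 7679).

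A score over the members, their mean log2(CPM + 1) in a cell, had a sister intraclass correlation of 0.286 (95% interval 0.153 to 0.409). It was 0.304 with depth regressed out and 0.220 with cell cycle scores regressed out. Within run 4 the score had 0.438 (0.290 to 0.565, 136 divisions) and within run 5 0.156 (-0.0871 to 0.383, 67 divisions), and the difference between the runs was not tested. In run 4 taken alone 4 members passed (Atp6v1a, Atp6v1f, Atp6v1g1 and Atp6v0d1), against 21.2% of all genes, and none did in run 5, against 10.3%. Atp6v1a had nearly the same value in both runs, 0.227 and 0.227, while Atp6v1g1 had 0.236 and -0.0447 and Atp6v1f 0.228 and -0.00261. High minus low of the score was 0.03 ± 0.10 (SD, n = 9), positive in 5 of 9 experiments.

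Members tended to be high or low in the same divisions. Over the 203 division means, 44 of 45 pairs of members had a positive Pearson correlation, with a median of 0.196. Over all pairs of the 11699 genes tested 62.7% were positive, with a median of 0.031, and over pairs of the 9510 genes with a count in at least 50% of cells 65.5%, with a median of 0.042. With depth regressed out 43 of 45 pairs of members were positive (median 0.189), against 51.2% of all pairs (median 0.003). All pairs share the library and its total. The head genes Atp6v1a and Atp6v1b2 formed the closest pair, with r of 0.462 (Spearman 0.417). Next came Atp6v1a with Atp6v0d1 (0.40), Atp6v0b with Atp6v0d1 (0.385) and Atp6v1d with Atp6v0b (0.384). Atp6v1c1 stood apart with a mean of 0.0656 to the other members and the only negative pair, -0.0471 with Atp6v1e1, whose Spearman value was 0.0506.

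**Figure D5:**
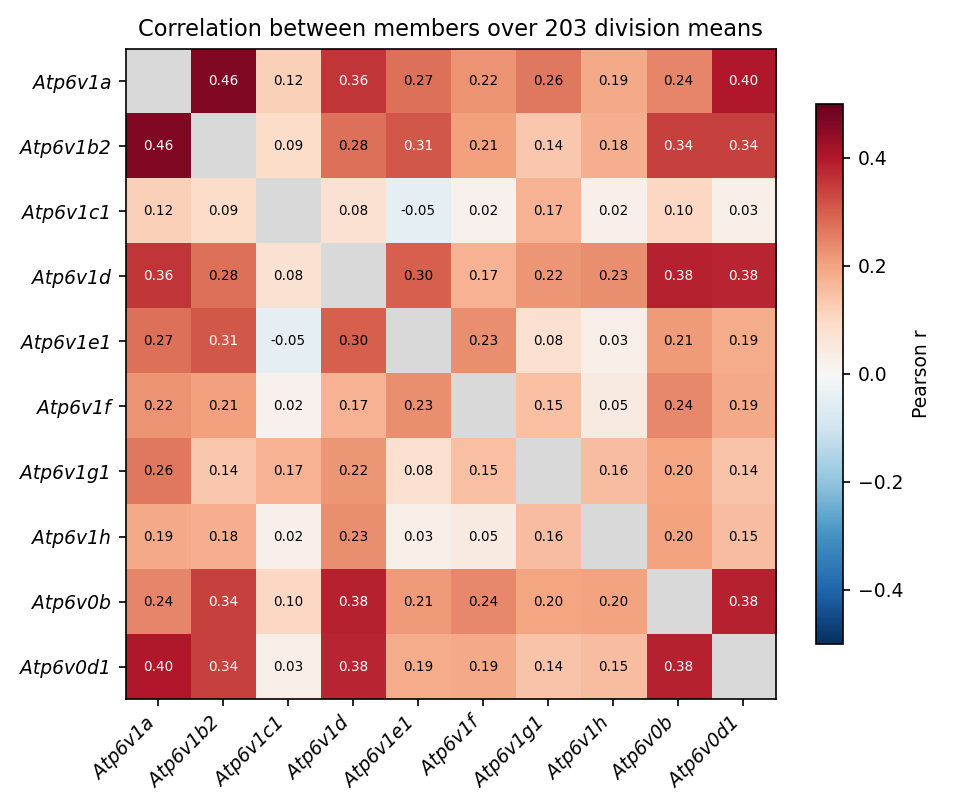
Pearson correlation between members over the means of the 203 divisions, centred on experiment and plate; red is positive, blue negative, and grey the diagonal. Atp6v1a with Atp6v1b2 is highest at 0.462, and the row of Atp6v1c1 is pale throughout.

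The genes whose division means were most like the score, out of 9500 other genes with a count in at least 50% of cells and with depth regressed out, were Anxa5 (0.605), which encodes a phosphatidylserine-binding annexin, Gabarap (0.542) of autophagosome formation, the lysosomal protease genes Ctsb (0.528) and Tpp1 (0.501), and Sdcbp (0.497), which encodes the endosomal adaptor syntenin. The median of these 9500 genes was 0.0343, with 5% below -0.269 and 5% above 0.284. Ctsd followed at rank 29 (0.434), Atp6v0c at 33 (0.427) and Lamp1 at 95 (0.383). Wdr7, which assists V1 assembly, had rank 115 (0.372), Atp6v0a1 136 (0.364) and Atp6ap1 197 (0.343), whereas Atp6v0a2 (0.0829) and Dmxl2 (0.0365) stood near the bulk of genes. These correlations describe 203 divisions of 9 experiments and share libraries.

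The level of several members went with the cell cycle state of the division. Daughters of 132 divisions had counts of the mitotic kinase gene Plk1 in at least 1 sister and those of 71 had none. Atp6v0d1 was lower in divisions with Plk1 by a mean of -0.45 ± 0.25 (SD, n = 9, log2 scale), and lower in 9 of 9 experiments, from -0.82 to -0.03. Of 11699 genes 2.33% were lower in all 9. Atp6v0b had -0.30 ± 0.20 and Atp6v1a -0.20 ± 0.33, both lower in 8 of 9 experiments, and Atp6v1d had -0.37 ± 0.46, lower in 7 of 9. The share of all genes lower in 8 or in 7 of 9 was not determined. Atp6v1h had -0.30 ± 0.35, Atp6v1f -0.18 ± 0.22, Atp6v1b2 -0.13 ± 0.54 and Atp6v1g1 -0.08 ± 0.33. For these members, as for Atp6v1a and Atp6v1d, the SD was larger than the size of the mean. Atp6v1c1 (0.03 ± 0.34) and Atp6v1e1 (0.02 ± 0.38) stood near 0. All genes had a median of 0.07, and 41.5% of them were lower with Plk1. Divisions with Plk1 had more detected genes in 9 of 9 experiments (429.4 ± 298.5 more), while log2 totals differed by -0.03 ± 0.22, and the part of either in these values was not tested.

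Across division means, the G1/S score, a mean over genes of DNA replication, had r of -0.485 with Atp6v0d1, lower than in all but 0.0855% of genes, and -0.434 with the member score. The values were -0.317 for Atp6v1b2, -0.310 for Atp6v1d, -0.295 for Atp6v1a and -0.289 for Atp6v0b, against a median of 0.0714 over all genes with 5% below -0.219. Atp6v1c1 (0.0196) and Atp6v1e1 (-0.0699) were again apart from the rest. With cell cycle scores regressed out, 43 of 45 pairs of members were positive, with a median of 0.161, against 60.9% of all pairs (median 0.024).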

How the data were processed

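Single-cell Smart-seq2 libraries of HSC daughters were analysed from 2 deposited count tables, 1 per sequencing run. The authors deposited raw counts per gene and cell; per the submitters' processing notes, featureCounts from Subread 1.5.0 and SAMtools were used. The aligner, like the genome build, was not given in the sources used here. All 55450 gene identifiers were found in GENCODE mouse release 21 (GRCm38), the source of symbols, positions and exon lengths. The deposited metadata hold labels (unit: other) for experiment, position, colony, plate, well, run and lysosome inheritance, and sisters were joined by them. Left out were 171 count columns of no listed sample.

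Counts were summed per experiment and label, or per experiment, and tested with the quasi-likelihood F test of edgeR 4.0.16 under R 4.3.3 (TMM scaling, filterByExpr given the design; high against low had the experiment as block, since both labels come from the same cultures). Intraclass correlations used log2(CPM + 1), a pseudocount of 1, and genes with a count in at least 20% of cells. DESeq2 1.42.0, limma 3.58.1, other normalization, filters, pseudocounts and each experiment left out were alternatives. In simulated data with 200 genes changed 2-fold, edgeR recovered 54.9% of them for high against low and 47.4% for run 5 against run 4. False calls were 4 and 3. Genes changed 2-fold can thus go without a call. A simulated intraclass correlation of 0.3 was called in 93% of genes, and 0.6 in 100%. Those values were drawn from a normal distribution, with no zero counts and no experiment or plate effects, and 200 genes held a correlation. The edgeR simulation had no experiment effects either. These rates are over all genes simulated and need not hold for the measured data or for the members. The threshold was an adjusted p of 0.05. Labels do not say that experiments used different animals, so p-values measure the spread between these cultures. Members, lists and tests were chosen with earlier results of these data known. All 10 members are named; of related lists, genes past a threshold or up to 4 per list by p, with further genes of known roles named after their values were seen; and the 5 genes most like the members. Other steps ran in Python 3.11.15 (pandas 2.3.3, numpy 2.4.6, statsmodels 0.14.6, scipy 1.17.1; figures with matplotlib 3.10.9).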

Additional observations from a re-analysis of the deposited data

Results flagged for a closer look

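Among 60 sets of 4 to 9 experiments that were examined for a value far from the others, 1 stood out, where chance flags about 1 in 20. In run 4, experiment 69 had a high minus low value of -0.5556 for Atp6v1e1 (ratio of mean CPM, log2), with 85.2 CPM in high and 125.2 in low daughters over 12 divisions, and the next lowest of the 5 experiments stood at 0.10. Without experiment 69, the edgeR estimate over the other 8 experiments was 0.06 in place of -0.01.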

How the results depend on the processing

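Direction and side of the threshold held for the count of members called between high and low daughters, for its interaction with the run and for run 5 against run 4: it was 0 under each alternative, without the replicate block and with the low-count filter by label (run before the filter reported here) included. For sister similarity, the count of 3 members became 1 with cell cycle scores regressed out, 0 with cell cycle, depth and detected genes regressed out together, 0 in run 5 alone, and 1 to 5 with each experiment left out. Removing samples or regressing out scores also changes power, and the cause was not tested.

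Single members whose sign turned were past no threshold in the main fit or in the setting where the sign turned. Atp6v1f and Atp6v1g1, whose sister similarity turned in run 5 alone, did pass in run 4 alone. For high minus low these were, over all listed cells, Atp6v1b2 (-0.00453), Atp6v1e1 (0.0541) and Atp6v1g1 (-0.00706); over divisions with limma, Atp6v0d1 (0.0111), Atp6v1b2 (-0.0431), Atp6v1d (-0.00328), Atp6v1e1 (0.20) and Atp6v1g1 (-0.0633); in run 4 alone, Atp6v1b2 (-0.0045), Atp6v1e1 (0.000493) and Atp6v1g1 (-0.0262); in run 5 alone, Atp6v1f (-0.10); and without the replicate block, Atp6v1g1 (-0.000484). The block changed no other sign and no call. With each experiment left out, high minus low ran from -0.0229 to 0.0517 for Atp6v1b2, -0.0376 to 0.0604 for Atp6v1e1, -0.00427 to 0.0513 for Atp6v1f and -0.0253 to 0.0410 for Atp6v1g1. Run 5 minus run 4 turned for Atp6v1b2 without experiments 60 and 72 (0.11) and for Atp6v1f in low daughters alone (0.0204). Sister similarity changed sign in run 5 alone for Atp6v1e1 (-0.0231), Atp6v1f (-0.00261), Atp6v1g1 (-0.0447) and Atp6v1h (-0.0886), and for Atp6v1h with cell cycle scores regressed out (-0.0386) or with depth added (-0.0318). With each experiment left out it ran from -0.00758 to 0.0387 for Atp6v1e1 and from -0.0246 to 0.128 for Atp6v1h. Levels per kilobase moved by more than their SD for 8 members with the longest transcript. Precision is limited by 9 experiments, and by counts for Atp6v1c1 and Atp6v0b (medians of 38 and 46 per cell).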

Other observations

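The 68 cells without a sequenced sister, which were left out of the main comparisons, had somewhat higher levels of several members. In the 8 experiments with at least 3 such cells (67 cells), Atp6v1a was higher in them by 0.30 ± 0.41 (SD over experiments, log2 scale), in 6 of 8 experiments, Atp6v0b by 0.23 ± 0.26 and Atp6v1b2 by 0.19 ± 0.26, also in 6 of 8. Atp6v1g1 stood at -0.04 ± 0.17, and the median of all genes was -0.06. Each mean was smaller than its SD. Median totals were 926422 in cells without and 833350 in cells with a sequenced sister.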
